A study of Mus musculus with 9 samples.

Results

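The ordered trend across the media was the straight-line change of a gene from uteri given medium of arrested human embryos, through uteri given unconditioned medium, to uteri given medium of competent human embryos. The groups were scored -1 for arrested, 0 for control and 1 for competent medium, so that 1 step is the average change from one group to the next. Genes entered by their level alone: 13333 of 35934 genes with annotated transcripts had a mean of at least 1 FPKM (fragments per kilobase of transcript, scaled to the mapped fragments of the library) over the 9 libraries, and all of them were fitted. No sample was chosen by its values.

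Immature C57BL/6 female mice, aged 25 days in the treatment protocol and 21 days in the design text, had all been primed over 3 days with 1 mg of progesterone and with estradiol at 10 mg/kg per day, and 50 µl of medium was then placed in each uterine horn. Control horns received embryo culture medium in which no embryo had grown. The competent group received medium pooled from 9 human embryos and the arrested group medium pooled from 18, so each group stands for 1 pool of medium. Whole uteri were frozen and sequenced, 3 libraries per group. Whether 1 group holds 3 animals or repeat libraries of fewer is not in the labels, so p-values measure only the spread between these samples, and part of it may be technical. The interval from injection to collection is not given either.

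The uterine lumen is lined by a single epithelium that meets the embryo first. Estradiol drives its cells to divide and to secrete proteins such as lactoferrin, lipocalin 2 and complement C3, and to cover themselves with membrane mucins. Progesterone restrains this programme and prepares the underlying stroma for implantation. The trend was fitted to ask whether expression in the uterus follows 1 axis from arrested to competent medium, with unconditioned medium in the middle. With 3 libraries in every group, the slope itself is set by the arrested and competent libraries alone. Controls enter its test only through the residual spread, so a slope does not by itself place them in the middle. Their place is given by the 2 steps, the complete order and the departure from the midpoint.

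Coverage amounted to between 1302.8 and 2471.3 Mb per library, and depth in reads is unknown. Arrested libraries correlated with one another no better than with the rest (mean r across genes 0.862 to 0.873 with their own group and 0.864 to 0.887 with the others), whereas control and competent libraries were closer to their own group. On the first principal component arrested library 3 stood at -90.7, far from the range of -4.9 to 25.1 of the remaining 8. Adipocyte genes were high in arrested library 2. Epithelial markers were present in all libraries, with keratin 8 (Krt8) at group means of 544 to 609 FPKM, as were smooth muscle and stromal markers. In whole tissue, fewer cells of a type and less RNA per cell cannot be told apart.

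Cd83, which encodes an activation marker of dendritic cells and lymphocytes, fell along the order arrested, control, competent, and was the only gene to pass (limma, Benjamini-Hochberg adjusted p under 0.05; 1 gene, or 0.0075% of those tested). At an unadjusted p under 0.05, 1527 genes had a slope, or 11.5% of those tested: 782 were highest after competent medium (5.87%) and 745 highest after arrested medium (5.59%). The median slope of all genes was 0.00353 per step on the log2(FPKM + 1) scale. In 1385 of the 1527 the control mean lay between the means of the 2 media, against 5543 of all genes tested (41.6%), and a fit of a straight line favours that shape by itself.

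A stricter pattern used no test. In 86 genes (0.645% of those tested) the 9 libraries stood in complete order, with no overlap between neighbouring groups. Of these, 52 (0.39%) were lowest in every arrested library and highest in every competent library, and 34 (0.255%) were ordered the other way. The first set held 50 protein-coding genes and its slopes ran from 0.152 to 1.06 with a median of 0.355. The second held 30 protein-coding genes, and its slopes ran from -1.68 to -0.111 with a median of -0.291. Controls stood a median of 0.56 of the way from arrested to competent in the first set, with a range of 0.22 to 0.87, and 0.57 in the second, with a range of 0.25 to 0.85. Complete order by itself places controls between the media. Predicted genes known only by an identifier made up 6 of the 52 and 8 of the 34 and are not named.

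Cd83 lies at chr13:43880476-43898499 on the plus strand of NCBIM37 (mm9), the build of the files. Its arrested libraries read 7.59, 6.26 and 6.88 FPKM, its controls 3.00, 3.21 and 3.596, and its competent libraries 1.39, 1.01 and 1.27. No library of one group reached a library of the next, and the smallest gap between neighbouring groups was the widest among the 34 genes highest after arrested medium. The slope was -0.92 ± 0.09 per step (SE; limma, adjusted p = 0.032), a fold of 1.89 per step on the log2(FPKM + 1) scale, and controls stood at 0.49 of the way. Both steps were of like size, -0.89 ± 0.19 from arrested to control and -0.94 ± 0.19 from control to competent, and both rest on the same controls. By exon coverage, explained below, controls stood at 0.36 of the way, so the steps were less even. The call held in 12 of 23 alternative settings. It was lost when any library except control library 3 was left out, at slopes of -0.95 to -0.88 and limma adjusted p-values from 0.0506 to 0.18, the highest without competent library 2. It was also lost with the replicate number as a block (limma, adjusted p = 0.173), with no filter on low FPKM (0.077) and with a pseudocount of 0.1 (0.0505).

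Other dendritic cell markers were measured beside it. Of 11 tested members of that list, Cd83 included, 9 had a negative slope and 2 a positive one, and only Cd83 passed the test. At an unadjusted limma p under 0.05 there were 2 negative slopes, Cd83 and H2-Aa (18.2%, against 5.59% of all genes), and no positive one. The class II gene H2-Aa averaged 121 FPKM after arrested medium, 129 in controls and 69.5 after competent medium. Itgax, an integrin of myeloid cells, averaged 2.13, 1.61 and 0.893 FPKM. The 2 members with a positive slope were Fscn1, at 7.14, 7.67 and 11.1 FPKM, and Cd209a, at 0.996, 1.65 and 1.33 FPKM. H2-Ab1, H2-Eb1 and Cd74 were also highest in controls, with slopes of -0.15, -0.15 and -0.09. Flt3, Xcr1, Ccr7 and Ccl22, which mark dendritic cells or their migration, stayed below the filter with group means of 0.0907 to 0.555 FPKM. The summed level of the list ran from 255 to 429 FPKM in arrested, 296.5 to 426 in control and 237 to 260 in competent libraries, and the part of these cells in the Cd83 slope was not tested.

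**Figure D1:**
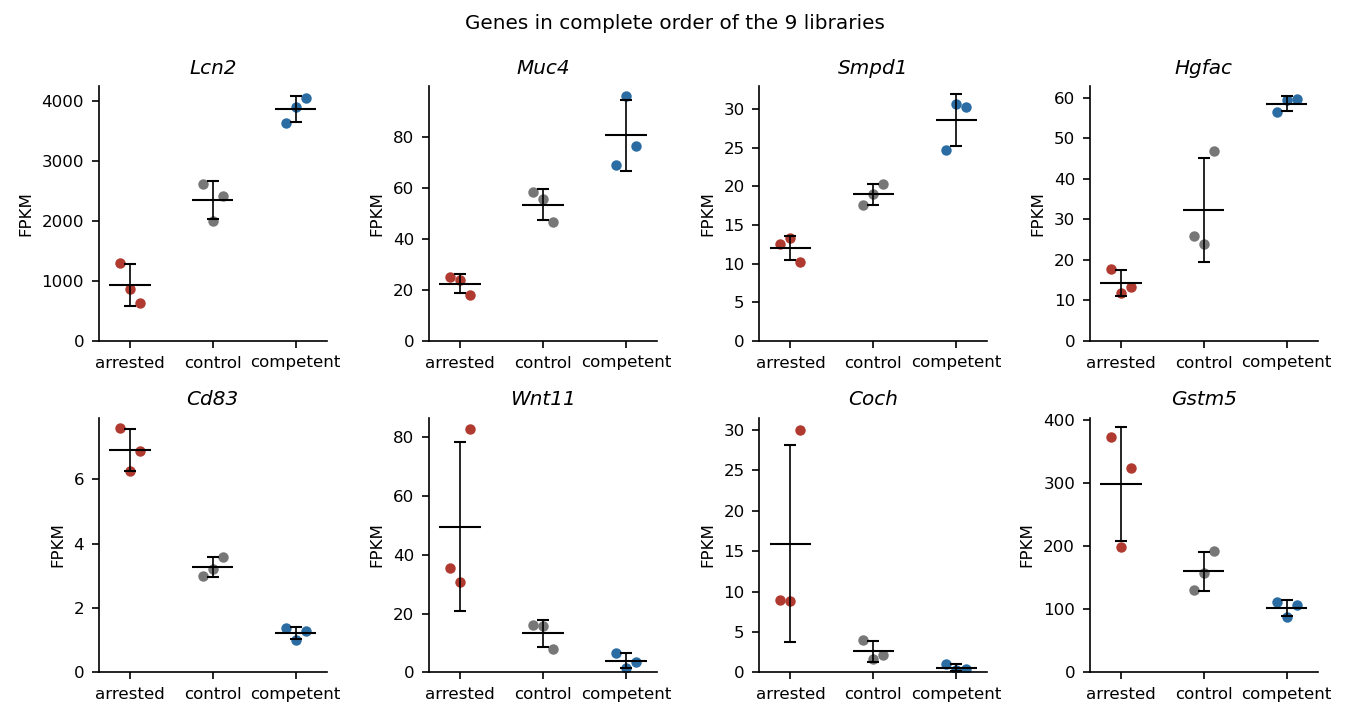
FPKM by library (points) for 8 genes in complete order, 4 highest after competent and 4 highest after arrested medium, with group mean and SD (bars) and 3 libraries per group, each on its own linear axis from 0. In each panel the 3 control points lie between the groups without overlap. Cd83 is tight in every group, whereas 1 arrested library lies far above the others for Wnt11 and Coch.

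Among the 52 genes in complete order that were highest after competent medium, the steepest slopes were those of Lcn2, Clca3, Pla2g2e and Hgfac, all of which encode secreted proteins. Lcn2, which encodes lipocalin 2, a secreted protein that binds bacterial iron carriers, read 1301, 872 and 624 FPKM in arrested, 2614, 2002 and 2419 in control and 3635, 3904 and 4050 in competent libraries. Group means were 932.3 ± 343, 2345 ± 313 and 3863 ± 211 FPKM (SD, n = 3), and no groups overlapped. The slope was 1.06 ± 0.13 per step and missed the threshold narrowly (limma, adjusted p = 0.056), at 2.08-fold per step. Its smallest gap between groups, 0.48 on the log2 scale, was the widest of the 52.

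Muc4, a large membrane mucin of the luminal surface, gave 24.9, 24.0 and 18.1 FPKM after arrested medium, 58.2, 55.5 and 46.4 in controls and 69.0, 96.0 and 76.5 after competent medium. Its slope was 0.90 ± 0.10 (limma, adjusted p = 0.056), with a lower step of 1.23 ± 0.18 and an upper step of 0.58 ± 0.18. Muc20, a neighbouring membrane mucin gene, stood in the same order at 16.4 to 39.9, 56.2 to 70.6 and 80.9 to 86.1 FPKM, with a slope of 0.78 ± 0.15 (limma, adjusted p = 0.17). Both mucins had controls nearer to the competent group, at 0.68 and 0.74 of the way.

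Hgfac, the protease that activates hepatocyte growth factor, read 17.8, 11.7 and 13.2 FPKM in arrested, 25.9, 24.0 and 47.0 in control and 56.5, 59.6 and 59.8 in competent libraries. Control library 3 lay apart from the other controls but still below every competent library. Smpd1, acid sphingomyelinase of the lysosome, gave 12.5, 13.3 and 10.2, then 17.6, 19.0 and 20.3, then 24.7, 30.7 and 30.2 FPKM, in steps of 0.62 ± 0.15 and 0.56 ± 0.15. The slopes were 0.99 ± 0.12 for Hgfac and 0.59 ± 0.07 for Smpd1 (limma, adjusted p = 0.056 for each). Lcn2, Muc4 and Smpd1 each passed in 8 of 24 alternative settings and Hgfac in 5. By exon coverage, described further on, Hgfac was not in complete order and its limma adjusted p was 0.0585.

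Of 13 secreted defence proteins tested, 5 had a positive and 8 a negative slope, and the median was -0.085 (0.11 without arrested library 3). In complete order stood 1 of the 13, Lcn2, against 0.645% of all genes. Ordered genes of related function outside that list are given as examples. Pglyrp1, a peptidoglycan-binding protein, stood at 39.7 to 88.7 FPKM after arrested medium, 96.2 to 112.1 in controls and 162.5 to 212.5 after competent medium, a slope of 0.75 ± 0.13. Dmbt1, a secreted scavenger receptor of mucosae, was low throughout, at 0.278 to 0.319, 0.483 to 1.77 and 2.02 to 4.71 FPKM. Pla2g2e, a secreted phospholipase, ran from 1.15 to 8.39, then 11.01 to 15.98, then 19.4 to 21.9 FPKM. Ltf, the lactoferrin gene and a member of the list, had group means of 1389 ± 430, 2184 ± 389 and 3119 ± 473 FPKM (SD, n = 3) but neighbouring groups met, so it is not among the 52. Of these 4 genes none passed (limma, adjusted p = 0.12 to 0.23).

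Of 14 epithelium markers tested, 1, Cdh1, stood in complete order, against 0.645% of all genes. The tight junction genes Cldn3, Cldn4 and Cldn7 did not, with slopes of -0.05, -0.22 and 0.24. Cdh1, E-cadherin of the adherens junction, read 123, 104 and 112 FPKM in arrested, 137, 151 and 133 in control and 176, 152 and 165 in competent libraries, a slope of 0.27 ± 0.05. Examples of ordered genes outside that list follow. Gjb2, connexin 26 of the gap junction, was spread from 12.1 to 76.0 FPKM after arrested medium, where it all but touched the lowest control at 76.5. Tjp3, a tight junction scaffold, had 28.8 to 59.0, 73.0 to 79.6 and 81.1 to 85.04 FPKM. Padi1, which converts arginine to citrulline in proteins, had 89.3 to 177.0, 271.6 to 310.9 and 342.7 to 412.8 FPKM. Clca3, a secreted chloride channel regulator of goblet-type cells, read 84.6 in arrested library 3 against 646.4 and 627.6 in the other arrested libraries, with controls at 1036 to 1084 and competent libraries at 1142 to 1648. The lowest value of the arrested group was that of library 3 in Tjp3, Padi1, Gjb2, Clca3, Muc4, Muc20, Pla2g2e and Lcn2. Without that library the slope of Lcn2 was 0.91 and that of Muc4 0.81 (limma, adjusted p = 0.0703 and 0.0796).

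Further examples among the 52 have other roles. Ada, adenosine deaminase, had means of 2.18 ± 0.52, 4.68 ± 1.61 and 8.93 ± 2.27 FPKM (SD, n = 3). Txnrd1, thioredoxin reductase, had 35.0 ± 1.85, 47.9 ± 4.34 and 57.3 ± 4.49 FPKM. Cdkn1a, the cell cycle inhibitor p21, read 2.98, 4.84 and 5.75, then 7.15, 8.24 and 10.4, then 14.2, 11.6 and 11.9 FPKM. Tpm3 and Tpm3-rs7, a tropomyosin gene and a near-identical copy, were both ordered, with slopes of 0.49 ± 0.08 and 0.47 ± 0.07, and reads cannot be assigned to one of them with certainty.

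Wnt11 and Coch had the steepest slopes of the 34 genes in complete order that were highest after arrested medium; over all genes tested, slopes ran from -4.19 to 4.25. Wnt11, a secreted WNT ligand, read 35.5, 30.6 and 82.5 FPKM after arrested medium, 16.1, 15.7 and 8.04 in controls and 6.68, 1.60 and 3.46 after competent medium. Coch, which encodes the secreted matrix protein cochlin, gave 8.94, 8.83 and 30.0, then 4.01, 1.60 and 2.17, then 1.09, 0.275 and 0.399 FPKM. Arrested library 3 was the highest library of both genes. The slopes were -1.68 ± 0.24 and -1.61 ± 0.25 (limma, adjusted p = 0.11 for each), and without that library -1.48 and -1.32. Steps for Wnt11 were -1.74 ± 0.50 and -1.62 ± 0.50, close to a straight line, and for Coch -2.07 ± 0.49 and -1.16 ± 0.49.

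The windows upstream of 4 ordered genes, 2 from each direction, are shown because Lcn2, Wnt11 and Coch had the steepest slopes of their set and Muc4 the lowest p of the 52. Each is the 120 bases before the annotated start, 5′ to 3′ in the direction of the gene, from RefSeq on GRCm38.p6, another build than that of the files. Capitals mark the TATA box letters TATAAA; none of the other motifs searched was found in these stretches. They lie at chr2:32387740-32387859 on the minus strand for Lcn2, and on the plus strand at chr16:32735766-32735885 for Muc4, chr7:98834992-98835111 for Wnt11 and chr12:51593221-51593340 for Coch.
Lcn2: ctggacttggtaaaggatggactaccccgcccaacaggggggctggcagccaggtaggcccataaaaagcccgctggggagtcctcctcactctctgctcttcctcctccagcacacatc
Muc4: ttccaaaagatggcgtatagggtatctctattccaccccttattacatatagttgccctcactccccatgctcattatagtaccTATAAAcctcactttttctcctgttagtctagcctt
Wnt11: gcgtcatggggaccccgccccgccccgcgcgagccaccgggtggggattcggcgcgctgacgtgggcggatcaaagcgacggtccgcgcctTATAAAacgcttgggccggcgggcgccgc
Coch: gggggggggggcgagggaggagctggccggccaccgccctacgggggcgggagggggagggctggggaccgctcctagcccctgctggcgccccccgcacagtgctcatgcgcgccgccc
One gene of each direction carries the TATA letters in this window.

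Over windows of 250 bases before the start, 38 of the 52 genes highest after competent medium and 19 of the 34 highest after arrested medium had an entry, and Cd83 had none. TATAAA, read on both strands, was in 1 of 38 (2.63%) and 2 of 19 (10.5%), against 14.3% of the 27025 genes with a window. The palindromic estrogen response element GGTCANNNTGACC was in 0 of 38 and 0 of 19, against 0.0666% of all. The short site TGACC, which that element also contains, was in 14 of 38 (36.8%) and 6 of 19 (31.6%), against 38.4% of all. The CCAAT box, CCAAT, was in 12 of 38 (31.6%) and 4 of 19 (21.1%), against 37.5%. A match describes letters in a window and not a bound site.

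Other genes in complete order toward arrested medium are given as examples. Tgfbi, a matrix protein induced by transforming growth factor beta, had 86.3, 97.9 and 243.9 FPKM in arrested, 41.2, 42.8 and 71.5 in control and 39.1, 21.5 and 40.1 in competent libraries. Gstm5, a glutathione transferase, had 373, 198 and 324, then 131, 157 and 192, then 112, 87.2 and 107 FPKM, with a slope of -0.75 ± 0.12. Scel, sciellin of the cornified envelope, stood at 3.30 to 4.19, 1.12 to 1.97 and 0.266 to 0.948 FPKM. Cwh43 was set by 1 library, with 90.6 FPKM in arrested library 3 against 5.99 and 5.69 in the other arrested libraries and 0.714 to 2.88 elsewhere. None of the 4 passed (limma, adjusted p = 0.12 to 0.30).

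Gpc1, a cell-surface heparan sulfate proteoglycan, shows how far a gene value can depend on its transcripts. Summed FPKM were 13.8 to 26.0 after arrested medium, 5.79 to 11.1 in controls and 2.64 to 5.70 after competent medium, a slope of -0.97 ± 0.17. Coverage over all of its exons gave 17.1 to 26.0, 17.4 to 22.6 and 13.1 to 15.8, a slope of -0.25 ± 0.08, and its libraries were no longer in order.

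Smaller slopes made up most of the rest. Gm2a, the activator of lysosomal ganglioside breakdown, read 92.7, 82.7 and 93.3 FPKM in arrested, 72.4, 70.2 and 68.1 in control and 62.4, 61.6 and 58.3 in competent libraries, a slope of -0.28 ± 0.05. Echdc2, a mitochondrial hydratase-like protein, had a slope of -0.36 ± 0.07, and Id3, which inhibits helix-loop-helix transcription factors, one of -0.38 ± 0.08. Ldhb, a lactate dehydrogenase subunit, stood at 115 to 273, 80.0 to 88.5 and 60.9 to 73.9 FPKM. Limma adjusted p-values of these 4 genes were 0.13 to 0.24.

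**Figure D2:**
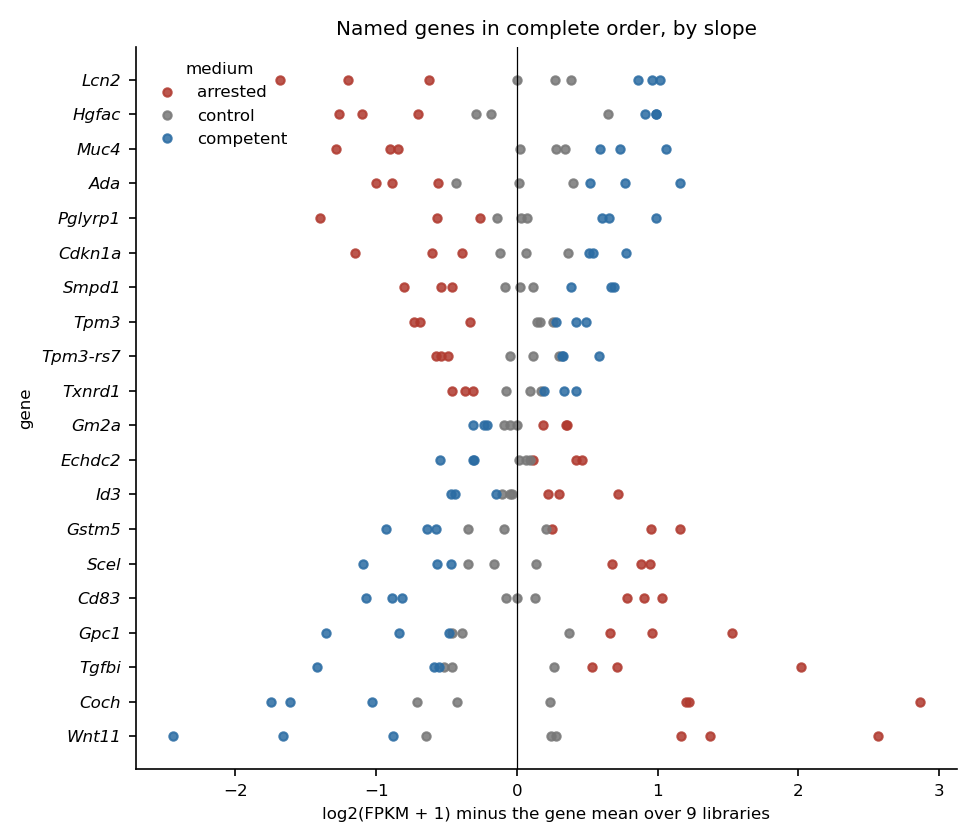
Level of 20 named genes in complete order by library, as log2(FPKM + 1) minus the mean of the gene over the 9 libraries; each row is a gene sorted by slope and each point 1 library. Grey control points lie between the arrested and competent points in every row, and single arrested libraries stand far out for Coch, Wnt11 and Tgfbi.

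Exon coverage was the deposited coverage added over annotated and assembled transcripts and spread over all exons of a gene, in FPKM units. It depends less on how fragments were divided among transcripts of the same gene. Division between overlapping or near-identical genes still enters it, and assembled transcripts not tied to a single gene are left out. By exon coverage 42 of 13737 genes (0.306%) passed in limma, 30 highest after competent medium (0.218%) and 12 highest after arrested medium (0.0874%). Controls lay between in all 42, and 35 were in complete order, of 162 genes (1.18%) in complete order by exon coverage. The straight-line fit that picked the 42 favours that shape by itself, so these counts are not separate evidence of it. Of the 52 ordered genes 42 kept their order by exon coverage and all kept the sign of the slope, and of the 34 the numbers were 24 and 34. Both gene values come from the same deposited estimates and are equal for some genes, such as Smpd1 and Gm2a. Kept order is therefore not independent evidence. The genes in the next paragraphs were chosen after their values were seen.

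Arg1, arginase, was among those with the lowest p. Its exon coverage was 10.1, 10.3 and 15.9 after arrested medium, 24.4, 27.1 and 27.3 in controls and 50.5, 69.9 and 86.3 after competent medium, with no overlap between neighbouring groups. The slope was 1.21 ± 0.11 (limma, adjusted p = 0.0128), so Arg1 rose along the order. Summed FPKM differed in a single library, competent library 1, at 16.7 in place of 50.5, which put the slope at 0.95 ± 0.26 with a limma adjusted p of 0.25. Naip1, a sensor of bacterial flagellin in the inflammasome, rose by exon coverage from 8.29 to 12.9 through 16.8 to 18.5 to 29.0 to 35.0, a slope of 0.78 ± 0.07 (limma, adjusted p = 0.0128). Its summed FPKM slope was -0.27 (limma, adjusted p = 0.94), and near-identical Naip copies leave its level uncertain.

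Among the 30 were genes best known from epithelia. By exon coverage Elf3, an epithelial transcription factor, gave 217, 159 and 160, then 317, 375 and 319, then 385, 467 and 402, a slope of 0.62 ± 0.09 (limma, adjusted p = 0.0365). Its summed FPKM left controls level with the competent group, at means of 336.7 and 344.4. Cftr, the chloride channel of the epithelium, had 7.76 to 8.99, 10.8 to 14.97 and 15.99 to 20.3, and Fcgbp, a mucus protein, had 16.9 to 33.5, 42.9 to 59.0 and 73.6 to 86.1. Tmprss11d, an airway-type serine protease, had 0.0503 to 0.367, 0.82 to 1.89 and 2.63 to 3.21. Lcn2, Muc4, Smpd1, Ada, Txnrd1, Cdkn1a and both tropomyosin genes passed as well, with limma adjusted p-values of 0.0176 to 0.0365. Ddit4, an inhibitor of mTORC1, passed with a slope of 0.64 ± 0.09, although control library 3 at 112.2 and competent library 2 at 111.9 overlapped.

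The 12 that fell by exon coverage had Coch (slope -1.66 ± 0.19), Wnt11 (-1.32 ± 0.19), Cd83 (-0.91 ± 0.09) and Gstm5 (-0.72 ± 0.11) at their head. Gstm1, another glutathione transferase, gave 130, 154 and 144, then 96.6, 88.7 and 124, then 74.2, 46.2 and 58.3, and near-identical copies leave its level uncertain. Ntn4, netrin 4 of the basement membrane, gave 16.97, 11.4 and 14.3, then 8.49, 8.34 and 7.39, then 6.43, 4.42 and 4.18. Cnn3, a calponin, gave 84.7 to 108, 67.2 to 78.8 and 49.6 to 61.1. All limma adjusted p-values of these 7 genes lay between 0.0128 and 0.0403.

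**Figure D3:**
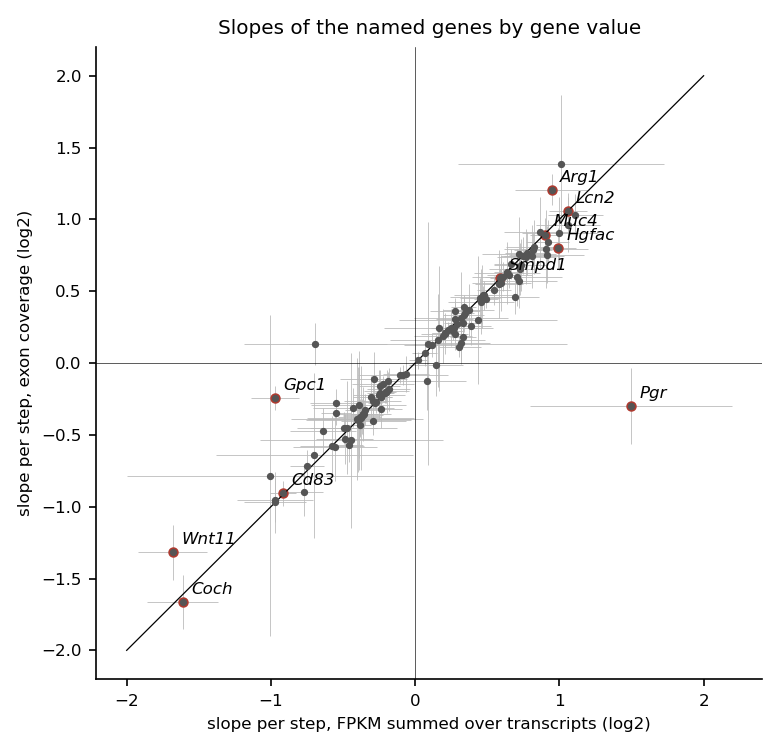
Slope per step by summed FPKM (horizontal axis) against slope by exon coverage (vertical axis), both on log2 scales, for 129 of 133 named genes. SE bars and the line of equal slopes are drawn. Genes of steeper slope, such as Sprr2g and Snord23, are not shown. Most genes lie on the line. Gpc1 is nearer to 0 by exon coverage, and some genes, such as Pgr, have slopes of opposite sign.

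Estradiol-responsive uterine genes had mostly positive slopes. All 31 of the list were tested; 25 had a positive and 6 a negative slope. None passed the adjusted test, whereas at an unadjusted p under 0.05 there were 17 positive (54.8%, against 5.87% of all genes) and 3 negative slopes (9.68%, against 5.59%). The median slope was 0.45 per step, against 0.00353 for all genes. In complete order upward were 6 members (Muc4, Lcn2, Cdkn1a, Padi1, Gjb2 and Clca3), against 0.39% of all genes. Median lower and upper steps were 0.45 and 0.49. Since the list was written with earlier results of these data known, its direction is not independent evidence.

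Summed over the list, the libraries ran from 4936 to 6428 FPKM after arrested medium, from 8748 to 9916 in controls and from 13360 to 14010 after competent medium, mostly from the abundant secreted products. The score of the list, the mean over members of log2(FPKM + 1) centred per gene, was -0.09, -0.09 and -0.56 in arrested, -0.08, 0 and -0.11 in control and 0.43, 0.12 and 0.39 in competent libraries. By that score arrested libraries 1 and 2 lay within the controls, and only arrested library 3 lay below them. The overlap rests in part on 1 member, Sprr2g, whose lower step of -6.01 raises the score of every arrested library. Without arrested library 3 the median slope was 0.41. C3, complement component 3, had group means of 1178 ± 419, 1723 ± 242 and 2422 ± 287 FPKM (SD, n = 3). Sprr2f, of the cornified envelope, had a slope of 0.94 ± 0.21, and Igf1, the growth factor, one of 0.57 ± 0.18 (limma, adjusted p = 0.21 and 0.32). The receptors were poorly measured by summed FPKM: Esr1 was listed at 0 in 8 libraries and Pgr in 6, while exon coverage gave slopes of 0.13 and -0.30. The negative member of lowest p was Sprr2g, another cornified envelope gene (-3.01 ± 0.58; limma, adjusted p = 0.168), which was read in arrested libraries alone. Others were Cyp26a1, which breaks down retinoic acid (-1.57 ± 0.64), and Txnip, which binds thioredoxin (-0.47 ± 0.17).

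Progesterone-responsive genes did not lean that way. Of 14 tested, 4 had positive and 10 negative slopes, with a median of -0.17, and none passed in limma. At an unadjusted p under 0.05 there were 1 positive (7.14%, against 5.87% of all genes) and 3 negative slopes (21.4%, against 5.59%). Without arrested library 2 the median was -0.10. Gli1, a target of hedgehog signalling, had a slope of -0.97 ± 0.26 and Hoxa11, a homeobox gene of the stroma, one of -0.37 ± 0.13. Gata2, a regulator of progesterone signalling, had 0.34 ± 0.08. Among implantation genes, Lif, the cytokine of attachment, had a slope of 0.27 ± 0.17 and Hbegf, an epidermal growth factor family ligand, one of -0.07 ± 0.16. Ptgs2, which makes prostaglandins, read 1.27, 2.33 and 5.47 FPKM after arrested medium against 0.538 to 0.708 in all other libraries.

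Cell division genes had positive slopes with a larger upper step. All 22 tested DNA replication genes had a positive slope (median 0.47) and 14 had an unadjusted p under 0.05 (63.6%, against 5.87% of all genes with a positive slope). Of 26 mitosis genes, 25 had a positive slope (median 0.63) and 17 an unadjusted p under 0.05 (65.4%, against the same 5.87%); no gene of either list passed in limma or stood in complete order. The median lower step of mitosis genes was 0.00688 and the median upper step 1.45, and for replication genes 0.13 and 0.75. By these medians most of the slope lay in the upper step. The departure of controls from the midpoint had an unadjusted p under 0.05 in 3 of the 26 and 1 of the 22, beside 3.20% of all genes. Plk1, a mitotic kinase, read 0.521, 4.35 and 0.952 FPKM after arrested medium, 2.30, 2.07 and 2.12 in controls and 6.05, 8.67 and 13.9 after competent medium.

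The arrested group was uneven for these genes. The mitosis score was 0.48 in arrested library 2, against -1.05 and -0.73 in the other arrested libraries, -0.66 to -0.20 in controls and 0.58 to 1.31 after competent medium. Without arrested library 2 the median slope of the list was 0.95. Every control score lay above the scores of the other arrested libraries, so the small lower step of mitosis genes depends in part on arrested library 2. Control means lay between the media in 12 of the 26 genes and in 16 of the 22, beside 41.6% of all genes.

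**Figure D4:**
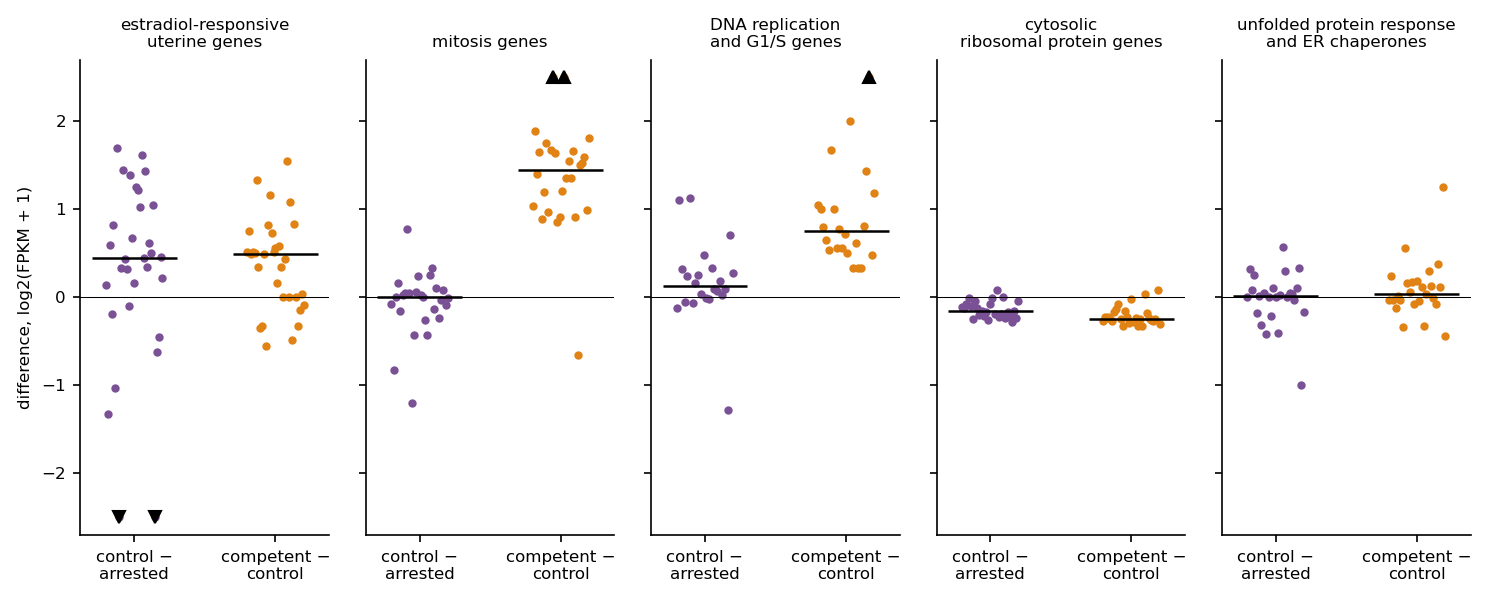
Lower step (control minus arrested) and upper step (competent minus control) on the log2(FPKM + 1) scale for 5 gene lists; each point is a gene, the bar the median, and triangles mark genes beyond the axis. Estradiol-responsive genes have medians of 0.45 and 0.49, whereas mitosis genes have 0.00688 in the lower and 1.45 in the upper step; both steps share the controls.

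Cytosolic ribosomal protein genes had small slopes the other way. Of 27 tested, 26 had a negative slope and 17 of them an unadjusted p under 0.05 (63.0%, against 5.59% of all genes), with a median of -0.19 and steps of -0.15 and -0.24. None passed in limma. Controls lay between in 25 of the 27 (92.6%). Rpl39, of the large subunit and outside the list, was in complete order at 1792 to 2657, 1691 to 1766 and 1322 to 1456 FPKM. Arrested library 1 was high, with a list score of 0.45, and without it the median slope was -0.13. Many of these genes have near-identical pseudogenes, among which reads may be divided.

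Stress genes of the endoplasmic reticulum, which the title of the series names, had no common direction along the axis. Of 25 tested, 16 had a positive and 9 a negative slope, with a median of 0.03, and none passed in limma (at an unadjusted p under 0.05, 1 in each direction, 4% each). Hspa5, the chaperone BiP, read 136, 302 and 334 FPKM after arrested medium, 406, 338 and 326 in controls and 391, 190 and 301 after competent medium. Its groups overlapped and its slope was 0.12 ± 0.20. Calr, a lectin chaperone, had the lowest p with 0.28 ± 0.08, and Xbp1, the transcription factor spliced in this response, had -0.30 ± 0.13 with 156 FPKM in arrested library 3. Atf4 was flat at 0.02 ± 0.06, and Herpud1, of protein degradation at the membrane, had -0.22 ± 0.22. For Ddit3, the gene of the transcription factor CHOP, arrested library 1 was listed at 0 and the others ran from 13.9 to 29.3 FPKM. Amino acid and integrated stress response genes had 11 positive and 9 negative slopes of 20, and heat shock genes 10 and 10 of 20.

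Other lists were mixed or carried by few members. Of 11 membrane mucin and cornified envelope genes tested, 8 had a positive slope. Complete order held upward in 2 (against 0.39% of all genes) and downward in 1 (against 0.255%). The median was 0.45, and 0.22 without arrested library 3. Complement genes had a median slope of 0.00614 over 19, although Cfb, factor B, stood at 208 to 237, 210 to 301 and 422 to 564 FPKM and Cfi, factor I, had a slope of 0.81 ± 0.22. Abp1, diamine oxidase, read 9.72, 7.33 and 14.1, then 14.9, 12.7 and 13.6, then 35.7, 47.0 and 33.6 FPKM, with controls only 0.23 of the way from the arrested group. Medians were 0.19 for 16 cholesterol synthesis genes, 0.14 for 21 interferon response genes, -0.04 for 18 implantation and decidual genes and -0.08 for 17 immediate early genes.

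**Figure D5:**
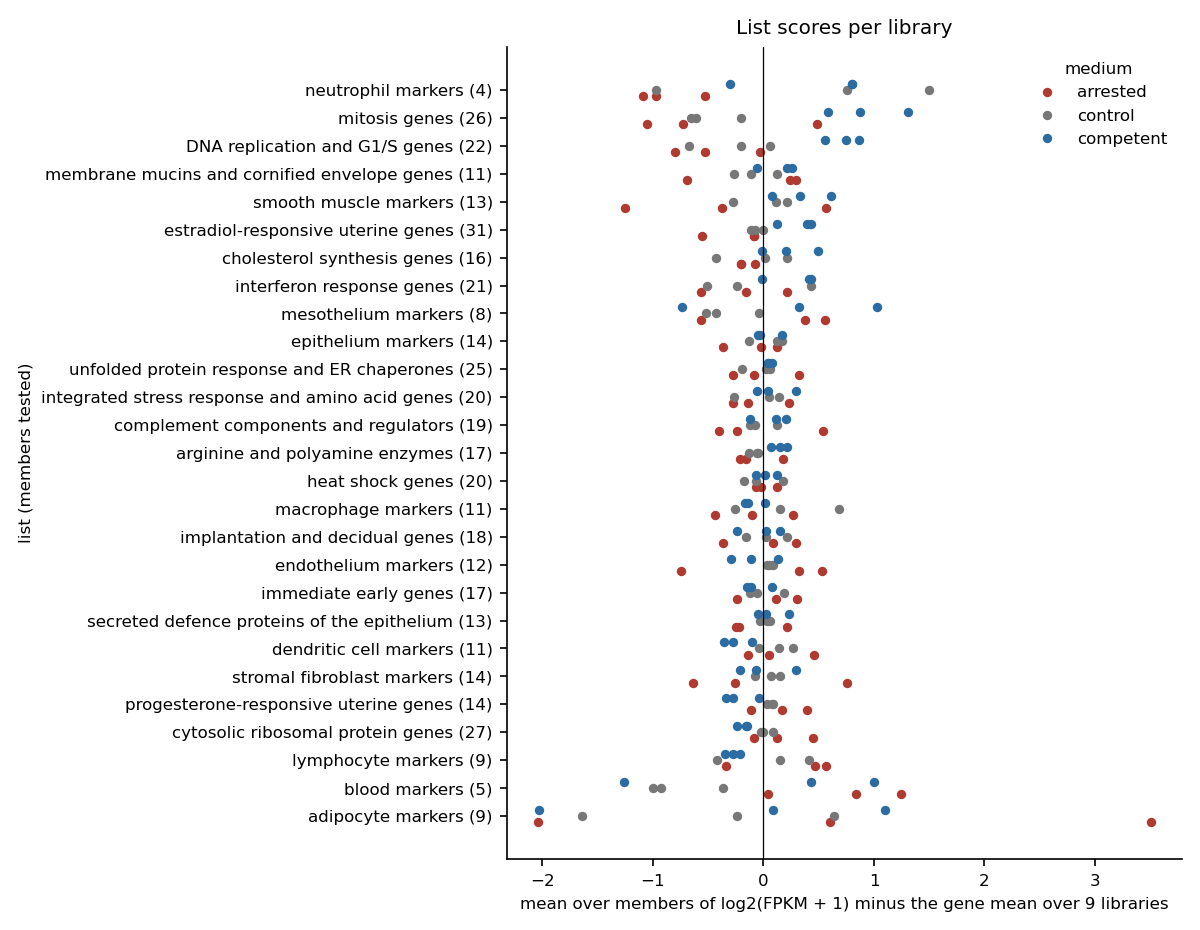
Score of each of 27 gene lists in the 9 libraries, the mean over members of log2(FPKM + 1) minus the mean of the gene over all libraries, with the number of members tested in brackets; lists are sorted by median slope. For the estradiol list each competent point lies right of all others; for adipocyte markers a single arrested library lies far right at 3.51.

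Markers of cell types were set beside these trends over the whole of each list. Epithelium markers had a median slope of 0.07 over 14 genes, with summed levels of 2628 to 3828, 3078 to 3874 and 3351 to 3836 FPKM in arrested, control and competent libraries. Smooth muscle markers had 12 of 13 positive slopes, a median of 0.45 and controls between in all 13, but a score of 0.57 in arrested library 2 against -1.25 and -0.38 in the other arrested libraries; Actg2, gamma smooth muscle actin, was the 1 member with an unadjusted p under 0.05. Without arrested library 1 the median was 0.24. Stromal markers had a median of -0.16 over 14, which was -0.35 without arrested library 1 and 0 without arrested library 2. Lymphocyte markers had -0.28 over 9, which was -0.09 without arrested library 2 and -0.56 without arrested library 3; 3 had an unadjusted p under 0.05, all negative (33.3%, against 5.59% of all genes). Neutrophil markers had a positive slope in all 4 tested of 12, among them Itgam, an integrin, at 2.51 to 5.01, 3.92 to 12.8 and 19.0 to 23.0 FPKM. The rest, Csf3r, Cxcr2, Mmp8, Mmp9, Retnlg, Ngp, Camp and Il1b, stayed below the filter, with group means of 0 to 0.772 FPKM. S100a8 and S100a9, calcium-binding proteins of neutrophils, were highest in controls, with group means of 1.24, 5.35 and 1.76 FPKM and of 0.922, 5.02 and 1.98 FPKM. The neutrophil score was 0.76, 1.5 and -0.97 in the 3 controls. Blood markers, mostly globins, had summed levels of 2091 to 4842, 937 to 1500 and 747 to 3966 FPKM, so controls lay below every arrested library and the lowest value was that of competent library 3. The part of any of these cell types in the gene slopes was not tested.

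Controls off the straight line were sought in a separate contrast, the control mean minus the midpoint of the media. It passed for 5 genes (0.0375%) in limma, and 427 had an unadjusted p under 0.05 (3.20%). Lower and upper steps taken alone passed for 7 (0.0525%) and 6 genes (0.045%), with an unadjusted p under 0.05 in 5.27% and 5.18% of genes. Among the 86 ordered genes 1 had a departure with an unadjusted p under 0.05. Complete order by itself limits how far controls can lie from the midpoint, so that count says little about a straight line. Most of the 5 were read as 0 in whole groups, and their values stand with the results for a closer look.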

How the data were processed

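Uterine RNA of 9 libraries, 3 per medium, was sequenced by the submitters, whose processing notes name mm9, Bowtie 0.12.2 and Cufflinks (no version). Each transcript has an FPKM computed by the authors and a deposited coverage signal, the mean depth of reads along it without division by library size; depth in reads is unknown, so low FPKM may rest on few reads. Fragments are divided among overlapping transcripts by estimate, so 2433 tested genes read 0 in 1 or more libraries. Of 92839 annotated transcripts per library, 1356 were outside GENCODE vM1 on NCBIM37 and were not used, and 14 listed in only some libraries were set to 0 in the rest.

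FPKM were summed over the annotated transcripts of a gene without rescaling. The 13333 genes averaging 1 FPKM or more were fitted on log2(FPKM + 1), which understates the change of low genes, with limma 3.58.1 (R 4.3.3): 1 linear score for the trend, 3 group means for steps and departure, empirical Bayes moderation with a mean trend, Benjamini-Hochberg adjustment over all genes and a threshold of 0.05. The fit was tested on simulated data. Python 3.11.15, pandas 2.3.3, numpy 2.4.6 and matplotlib 3.10.9 were used.

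The trend, lists and alternatives were chosen with earlier results of these data known. Named genes were up to 12 per direction (past the threshold, then in complete order by p), those past it in the departure test, up to 4 of lowest p per list, and preset stress, implantation and receptor genes; others are examples chosen after their values were seen. Replicate numbers did not pair libraries: deviations from the group means correlated between -0.05 and 0.1 for same-numbered and between -0.09 and 0.08 for other pairs. Alternatives were filters, pseudocounts, scalings, gene values, models, weights, a replicate block, leaving out each library, and a joint setting added after seeing the data. Some named genes are not reported here.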

Additional observations from a re-analysis of the deposited data

Results flagged for a closer look

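Controls departed from the midpoint of arrested and competent medium in 5 genes, by a test of that difference itself (limma, adjusted p under 0.05). Snord23, a small nucleolar RNA, had a departure of -4.19 ± 0.13 on the log2(FPKM + 1) scale (limma, adjusted p = 8.24e-06): it read 318.5, 357.4 and 315.4 FPKM after arrested medium and was listed at 0 in the other 6 libraries. Sprr2g, of the cornified envelope, had -3.01 ± 0.16 (limma, adjusted p = 0.00039), with 56.7, 64.2 and 70.8 FPKM after arrested medium and 0 elsewhere, and near-identical Sprr2 copies leave its level uncertain. Ube2v1, a cofactor of ubiquitin chain formation, had -4.94 ± 0.33 (limma, adjusted p = 0.00156): all 3 controls were listed at 0, against 15.2 to 38.4 FPKM after arrested and 20.8 to 39.4 after competent medium. Its exon coverage was 0 in controls too.

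Ubl4, a ubiquitin-like protein of tail-anchored protein insertion, had 1.58 ± 0.12 (limma, adjusted p = 0.00387), with controls at 71.0 to 88.0 FPKM and the media groups at 23.7 to 30.3 and 21.7 to 25.1. By exon coverage its controls were 26.1 to 27.1, beside 20.7 to 26.4 and 18.9 to 21.9. BC037034, known only by its clone name and named because of this departure, had 3.25 ± 0.30 (limma, adjusted p = 0.0105), with 9.14, 5.08 and 13.0 FPKM in controls; both of its transcripts were listed in only some of the libraries, and it was set to 0 in the rest. Causes of these patterns were not tested.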

How the results depend on the processing

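The trend passed for 1 gene, the departure of controls for 5, the lower step for 7 and the upper step for 6, and 86 genes stood in complete order. The trend count was 0 with no filter on low FPKM, 4 at a mean of at least 5 FPKM, 0 with a pseudocount of 0.1, 18 with the fit of 3 group means, 4 with median-ratio size factors, 6 after quantile normalization, 7 with assembled transcripts, 42 by exon coverage and 5 without genes listed at 0 in part of the libraries. The joint setting chosen after seeing the data, without the genes listed at 0 and with assembled transcripts, gave 15. Of the 18 by group means, 12 had controls between the media and 6 were in complete order. In 12 of the 18 (66.7%, against 3.2% of all genes) controls departed from the midpoint at an unadjusted limma p under 0.05. For the departure the counts were 8 with no filter, 2 with 1 transcript per gene, 1 without genes at 0 and 1 in the joint setting; for the lower step 3, 1 and 1 in the last 3 of these; for the upper step 10 with no filter, 2 with a pseudocount of 5, 1 by exon coverage, 3 without genes at 0 and 1 in the joint setting. Complete order held for 136 genes with assembled transcripts, 162 by exon coverage and 136 in the joint setting. Of the 86, the order was kept by 70 with size factors, 61 after quantile normalization, 57 with 1 transcript per gene (78 ordered in all), 72 with assembled transcripts and 66 by exon coverage.

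With the replicate number as a block the counts were 0 for the trend, 3 for the departure, 5 for the lower step and 1 for the upper step; the labels' numbers did not pair the libraries. Leaving out 1 library at a time gave 0 to 2 genes for the trend, 8 to 20 for the departure, 7 to 25 for the lower step, 4 to 17 for the upper step and 118 to 288 in complete order, the last because fewer libraries had to be in order. Without arrested library 3 the 2 trend genes were Ndp and Thrap3 in place of Cd83, and complete order held for 288. Cd83, the only gene to pass, kept the sign of its slope in every setting. Slopes of other named genes could reverse, as that of Pgr did by exon coverage. Of 3145 values for 133 named genes, 3077 kept their side of the threshold, 11 (all Cd83) lost it and 57 gained it. For genes other than Cd83, a kept side means that the gene passed in neither fit. In several settings list medians could not move, because the slope estimate stays the same. These were leaving out a control library, the replicate block, the fit of 3 group means and the fit with no mean trend. Of 648 list medians, these included, 2 moved by over 1 SD of the list's score within groups. They were secreted defence proteins, to 0.11 without arrested library 3, and membrane mucin genes, to 0.02 with no filter. That SD is wide for some lists: leaving out 1 library changed the sign of the median, rounded to 2 decimals, in 10 of 27 lists. In 22 it changed the sign or moved the median by over 1.5 times. Arginine and polyamine enzymes are not among the 10, because their median of -0.00124 rounds to 0. It was 0.06 without arrested library 3. Adipocyte markers ran from -1.3 without arrested library 1 to 0.25 without arrested library 2. The cause of these changes was not tested. Depth in reads being unknown, low genes cannot be told from failed estimates.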
